A study of Mus musculus with 12 samples.

Results

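The mouse mitochondrial chromosome carries 37 genes, whose symbols start with mt-, and all 37 were present among the 55471 genes of the count table. They comprise 13 protein-coding genes, 2 ribosomal RNA genes (rRNAs) and 22 transfer RNA genes (tRNAs). The members were taken by symbol. RNA was sequenced from primary hippocampal neurons, cultured from wild-type CD1 mouse embryos (E17) of mixed sex. One group received a locked nucleic acid gapmer against Neuid (Neuid KD, 6 libraries), a long non-coding RNA enriched in neurons. The other received a negative control gapmer (control, 6 libraries). A gapmer is a short antisense oligonucleotide that directs RNase H to its target RNA. In both groups the gapmers were packaged in lipid nanoparticles and added at day 7 in vitro, and RNA was collected at day 10. The labels do not say whether the libraries of a group came from separate cultures. The study's legend for the knockdown in its RNA-seq samples gives a smaller n than the number of libraries per group here. Whether some libraries share a culture is therefore unknown, and the p-values measure only the spread between these libraries, which may be technical.

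Mitochondrial genes are transcribed from both strands of a circular chromosome as long precursors, and tRNAs punctuate many of the boundaries between genes, where the precursor is cleaved. The proteins are subunits of complexes I, III, IV and V of oxidative phosphorylation, which assemble with many subunits encoded in the nucleus, whereas complex II is wholly nuclear-encoded. The rRNAs and tRNAs serve the ribosomes inside the organelle. Neurons depend on oxidative phosphorylation for firing and synaptic transmission.

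Neuid itself (Gm10419, ENSMUSG00000072769; chromosome 5, 108367769 to 108378239, plus strand, GRCm38) was reduced in each Neuid KD library. Levels are given in CPM, the reads on a gene scaled to a common library size, for which edgeR's TMM estimate of the effective size was used. Control libraries ranged from 26.0 to 31.0 CPM with a median of 28.3, and Neuid KD libraries from 6.32 to 9.55 CPM with a median of 8.08. The ranges did not overlap, and the log2 fold change was -1.81 ± 0.08 (SE; edgeR's quasi-likelihood test with Benjamini-Hochberg adjustment, adjusted p = 1.32e-10).

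Libraries held 11152556 to 30914714 counted reads. Reads on chemosensory receptor genes, which hippocampal neurons are not known to use, served as a measure of background and summed to 26.7 to 667 CPM in control and 27.1 to 616 CPM in Neuid KD libraries. They reached at least 100 CPM in 4 control and 3 Neuid KD libraries. All 9 neuronal markers were detected, and their summed level overlapped between the groups, with 5762.5 to 6787 CPM in control and 5672 to 6766 CPM in Neuid KD, and none of the 9 was called by edgeR or DESeq2, with 1 at an unadjusted p under 0.05. All 7 astrocyte markers rose, from a summed 1509.6 to 1925 CPM in control to 2776 to 3451 CPM in Neuid KD, and 2 of 5 markers of oligodendrocyte precursors rose as well. Of 4 markers of myelinating oligodendrocytes 2 were tested and 1 of them fell, and the 4 summed to 11.5 to 16.1 CPM in control and 8.67 to 12.0 CPM in Neuid KD. The part of these marker differences in the mitochondrial values below was not tested. In bulk RNA, fewer cells of a type and less RNA per cell cannot be told apart.

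Mitochondrial genes took up a similar share of the counted reads in both groups. The share was 18.1% to 19.4% in control libraries (18.6% ± 0.498, SD, n = 6) and 17.4% to 19.9% in Neuid KD libraries (18.6% ± 0.888, SD, n = 6), so the Neuid KD range enclosed that of control. With 2221362 to 5984912 mitochondrial reads per library, counting error was small: the 95% Wilson interval of a library's share spanned 0.0279 to 0.0469 percentage points. Intervals of this kind cover counting error only. The group means differed by 0.028 percentage points, and this difference was -0.12 in libraries with a background of at least 100 CPM and 0.12 in those below it. As the share is a sum over the members, it is given without a test.

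The reads were very unevenly divided among the 3 classes. The 2 rRNAs held 91.5% to 91.9% of the mitochondrial reads in control libraries and 91.3% to 91.7% in Neuid KD libraries. Coding genes held 8.05% to 8.52% in control and 8.23% to 8.73% in Neuid KD. The 22 tRNA genes together received 10407 of 50693858 mitochondrial reads. Of the positions of a 50-base read, 907 touched mt-Rnr1 and no other mitochondrial gene, and 1533 mt-Rnr2. This number was 20 for mt-Tv and 67 for mt-Tp, which are tRNA genes. The part of such differences in the division of reads was not tested. Reads on a tRNA gene can come from a mature tRNA or from a precursor that runs through it, and the counts cannot tell these apart.

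**Figure D1:**
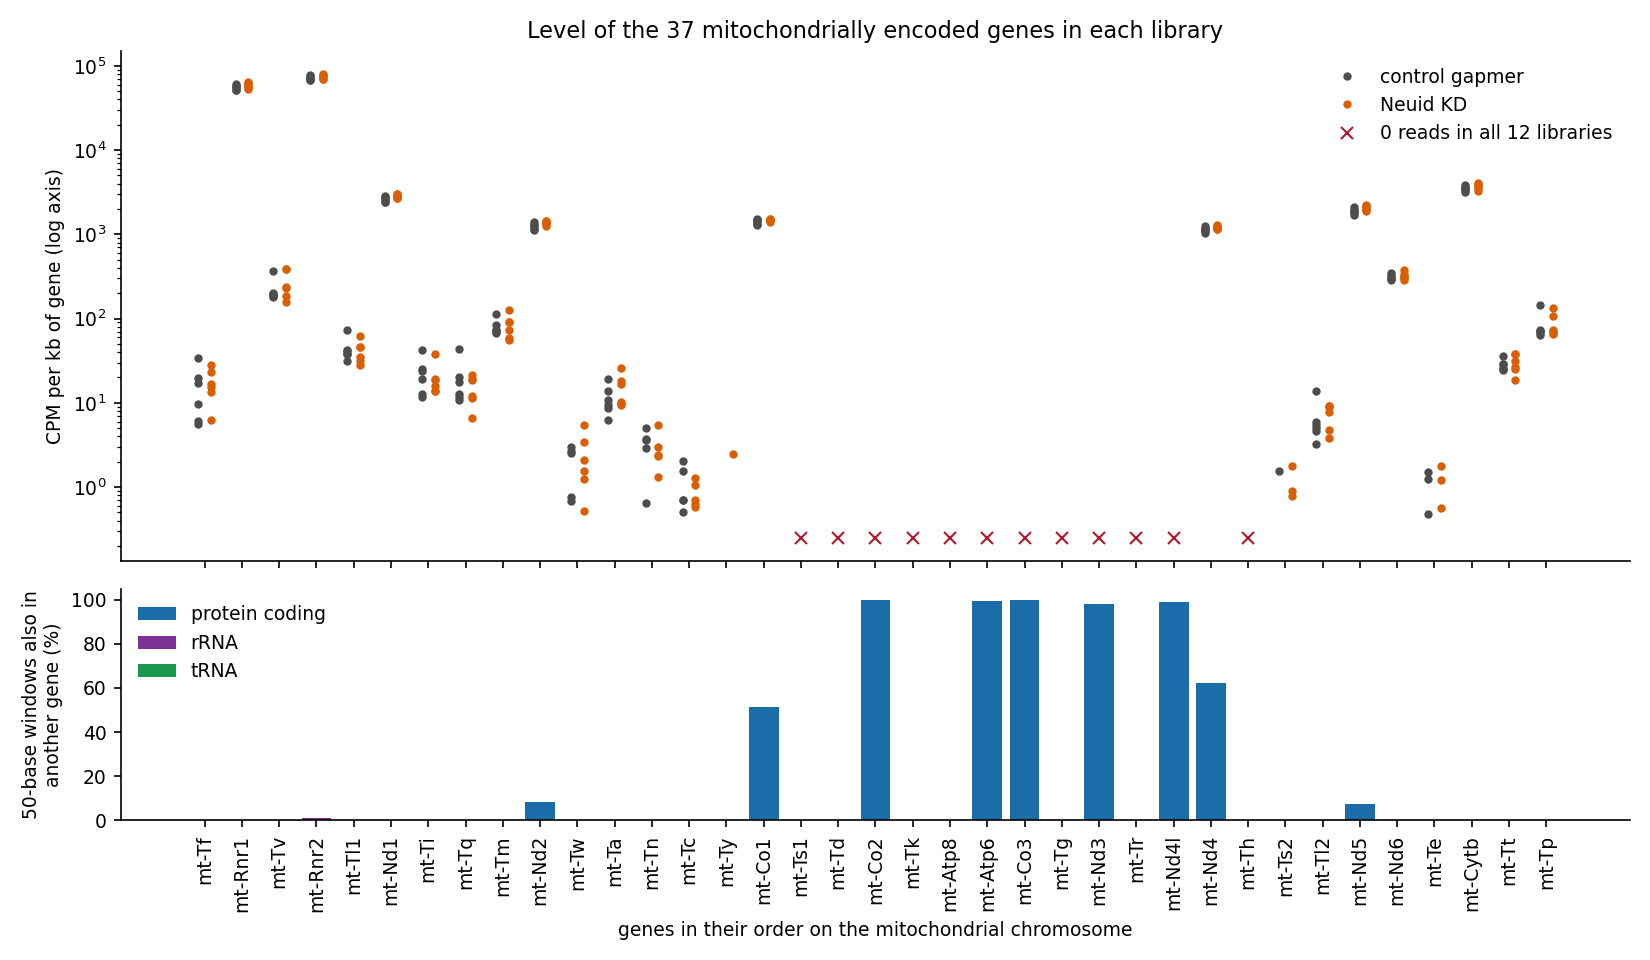
Upper panel: level of each of the 37 genes in CPM per kb of gene (log axis), in the order of the genes on the chromosome, with 1 point per library (grey, control; orange, Neuid KD); a library with 0 reads has no point, and a cross marks genes with 0 reads in all 12 libraries. Lower panel: percent of each gene's 50-base windows that also occur in another annotated gene; the 11 neighbouring genes from mt-Ts1 to mt-Nd4l had 0 reads, and 5 of them shared at least 98.0% of their windows.

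A large part of the chromosome had no counted reads. From mt-Ts1 to mt-Nd4l, bases 6870 to 10173 of the mitochondrial chromosome, 11 neighbouring genes had 0 reads in all 12 libraries. Of these, 6 encode proteins: mt-Co2 and mt-Co3, subunits of cytochrome c oxidase, mt-Atp6 and mt-Atp8, subunits of ATP synthase, and mt-Nd3 and mt-Nd4l, subunits of complex I. The other 5 are tRNA genes (mt-Ts1 for serine, mt-Td for aspartate, mt-Tk for lysine, mt-Tg for glycine and mt-Tr for arginine). Further along, mt-Th for histidine also had 0 reads. A count of 0 allows up to 3 reads, which is at most 0.253 CPM in the least deeply sequenced library. By contrast, the genes on either side, mt-Co1 and mt-Nd4, had 605088 and 441081 reads over the 12 libraries.

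The GRCm38 annotation holds nuclear pseudogene copies of this stretch, and these are shown because they share most of the sequence of the genes without reads. In the order mt-Co1, mt-Co2, mt-Atp6, mt-Co3, mt-Nd3, mt-Nd4l and mt-Nd4, the copies Gm29216, Gm28661, Gm10925, Gm28437, Gm28438, Gm10222 and Gm28439 lie next to each other on the minus strand of chromosome 1, between 24611535 and 24616197. From the first base of mt-Co2, the first base of mt-Atp6 lies 914 bases downstream and that of mt-Co3 lies 1594 bases downstream, and both distances were the same between the copies. Compared base by base with GENCODE transcripts, Gm28661 had 0 differences from mt-Co2 over 681 bases, and Gm10925, Gm28437, Gm10222 and Gm28439 also had 0 differences from their counterparts. Gm28438 had 1 difference from mt-Nd3 over 345 bases, and Gm29216 had 6 differences from mt-Co1 over 492 bases. The 6 differences all fell at the start of the copy, at bases 1054 to 1103 of mt-Co1 (chromosome MT, 5328 to 6872), and are in capitals in the first pair of lines, whereas the second pair, bases 316 to 365 of mt-Co2 (chromosome MT, 7013 to 7696) and of its copy, is identical.
mt-Co1: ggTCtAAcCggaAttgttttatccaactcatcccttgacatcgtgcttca
Gm29216: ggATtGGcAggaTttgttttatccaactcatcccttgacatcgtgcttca
mt-Co2: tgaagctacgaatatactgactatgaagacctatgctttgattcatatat
Gm28661: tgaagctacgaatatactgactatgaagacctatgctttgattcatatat

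The sequencing reads were 50 bases long, so the share of each gene's 50-base windows that also occur in another annotated gene was computed. It was 100% for mt-Co2, 99.9% for mt-Co3, 99.5% for mt-Atp6, 98.8% for mt-Nd4l and 98.0% for mt-Nd3. It was 62.2% for mt-Nd4 and 51.1% for mt-Co1. A copy of mt-Co1, Gm13340 on chromosome 2 (22588103 to 22589647, minus strand), aligned with it over 1545 bases with 37 differences. The share was between 1.04% and 8.19% for mt-Rnr2, mt-Nd5 and mt-Nd2, and 0 for the other members. mt-Atp8 and the 5 tRNA genes of the stretch without reads shared no window with an annotated gene, but the bases between the annotated copies on chromosome 1 were not analysed here. The copies themselves had few reads: Gm28661 had 3 reads over the 12 libraries, Gm28439 had 42, and Gm10222 had 0. How reads with several equally good positions were counted is not given in the sources used here, so the level of these genes in the cells is unknown, and their 0 reads are no measurement of expression.

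Of the 37 members, 18 passed edgeR's filter on low counts and were tested: 7 of 13 coding genes, both rRNAs and 9 of 22 tRNA genes. Another 7 tRNA genes had 4 to 128 reads over the 12 libraries and were not tested. They were mt-Tl2 (leucine) with 128 reads, mt-Tn (asparagine) with 51, mt-Tw (tryptophan) with 38, mt-Tc (cysteine) with 14, mt-Te (glutamate) with 10, mt-Ts2 (serine) with 7 and mt-Ty (tyrosine) with 4. The highest level of any of these in a library was 0.981 CPM, for mt-Tl2 in control library 1. Together with the 12 genes at 0 reads, they make up the 19 members without a test.

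None of the 18 tested members passed an adjusted p of 0.05 in either direction (edgeR's quasi-likelihood test with Benjamini-Hochberg adjustment over 19578 genes). Over all genes tested, 6.31% rose and 2.42% fell, and 3.23% passed both the adjusted p and an absolute log2 fold change above 0.5, against 0 members in each case. With upper-quartile scaling, 1049 of all genes rose and 1259 fell, and scaling to the reads on mitochondrial genes gave 844 and 736, where TMM gave 1235 and 473; 0 members were called under either. At an unadjusted p under 0.05, 3 members stood out by edgeR and 1 by DESeq2's Wald test, which likewise called 0 members. Such an unadjusted p was found by edgeR for 18.8% of all genes tested. No member had groups whose ranges did not overlap, compared with 5.70% of all genes tested.

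Most fitted differences were small and positive. Of the 18 members, 15 had a positive log2 fold change (12 with upper-quartile scaling and 13 when scaled to mitochondrial reads). Their median was 0.07, against -0.03 over all genes tested. With upper-quartile scaling these medians were 0.01 and -0.09, and when scaled to mitochondrial reads 0.02 and -0.08. All 7 coding genes were positive, from 0.06 to 0.13 with a median of 0.09. Among the alternatives, exceptions were mt-Nd6 at or just below 0 with upper-quartile scaling and at -0.02 without Neuid KD library 6, and mt-Co1 at -0.03 in libraries with a background under 100 CPM. In the same fit 8698 of 19578 genes were positive. The fits of coding genes and rRNAs were precise, with a median SE of 0.06 and 0.04 on the log2 scale, while the median SE of the tRNA genes was 0.23.

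**Figure D2:**
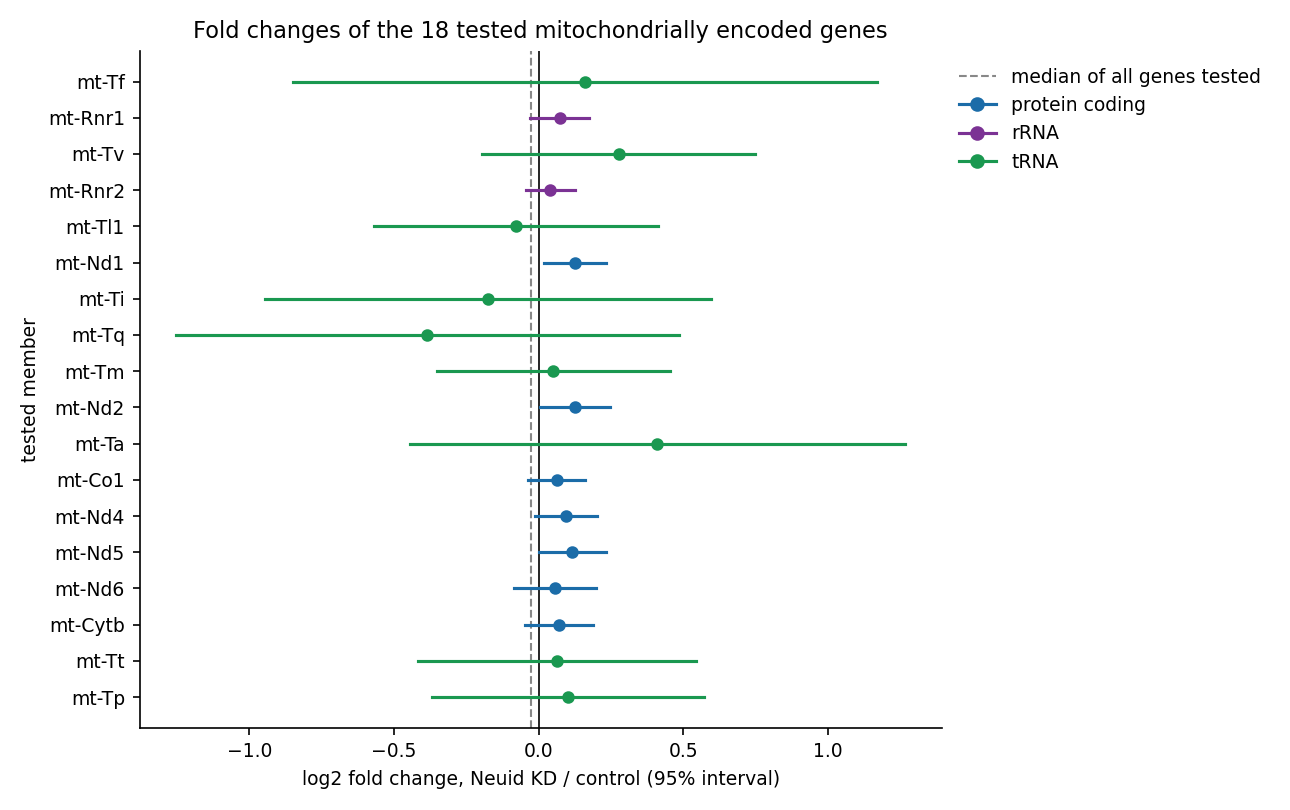
Log2 fold change of the 18 tested members, Neuid KD over control, with the 95% interval of the edgeR fit, in the order of the genes on the chromosome and coloured by class; the dashed line is the median of all genes tested (-0.03). Intervals of coding genes and rRNAs are short and lie close to 0, and those of tRNA genes are wide, from -1.25 to 1.27 at their extremes.

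The lowest p-values among the members belonged to 3 subunits of complex I, the enzyme that passes electrons from NADH to ubiquinone. mt-Nd1 (chromosome MT, 2751 to 3707, plus strand) measured 2299.5, 2524 and 2726 CPM as lowest, median and highest in control, and 2582, 2752 and 2907 CPM in Neuid KD. The ranges overlapped, with the lowest levels in control libraries 4 and 1 and the highest in Neuid KD libraries 3 and 4. The log2 fold change was 0.13 (95% interval 0.02 to 0.23) with an adjusted p of 0.159 by edgeR's quasi-likelihood test. This was the only member called under any alternative. By edgeR's quasi-likelihood test its adjusted p was 0.0415 with 1 RUVs factor, which estimates unwanted variation within groups, and 0.0410 with background as a covariate. It was 0.0707 with 2 RUVs factors. With 1 RUVs factor 8.97% of all genes tested were called higher, and with background as a covariate 9.07%.

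mt-Nd2 (3914 to 4951, plus strand) measured 1183, 1304 and 1469.6 CPM in control and 1294, 1436 and 1515 CPM in Neuid KD. Its log2 fold change was 0.13 (interval 0.01 to 0.25, adjusted p = 0.232 in the edgeR fit). mt-Nd5 (11742 to 13565, plus strand) measured 3066, 3479 and 3872 CPM in control and 3419.8, 3726 and 4069 CPM in Neuid KD, with a log2 fold change of 0.12 (adjusted p = 0.265 in the edgeR fit). For both, control library 3 was above the Neuid KD median, and Neuid KD library 6 was below the median of control. mt-Nd4 (10167 to 11544, plus strand), the fourth complex I subunit on this strand with reads, had a log2 fold change of 0.09 (interval -0.01 to 0.20).

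mt-Co1 (5328 to 6872), the catalytic core of cytochrome c oxidase, measured 2003, 2217 and 2379 CPM in control and 2176, 2297 and 2371 CPM in Neuid KD. The Neuid KD values lay wholly within the control range, and the log2 fold change was 0.06 (interval -0.04 to 0.16). mt-Cytb (14145 to 15288), the membrane subunit of complex III that holds its quinone sites, measured 3597, 4085 and 4418 CPM in control and 3764, 4236 and 4596 CPM in Neuid KD. Its log2 fold change was 0.07 (interval -0.05 to 0.19). In each of these 2 genes the groups overlapped over most of their range, and control library 1 was the lowest of all 12 libraries.

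mt-Nd6 (13552 to 14070), another complex I subunit, is the sole protein-coding gene on the minus strand, and its 3′ end overlaps that of mt-Nd5 by 14 bases. It measured 148, 158 and 181 CPM in control and 149, 164 and 195 CPM in Neuid KD, with a log2 fold change of 0.06 (interval -0.08 to 0.20). Its highest levels were in control library 1 and Neuid KD library 6, whereas the other 6 tested coding genes peaked in replicate 3 of each group. There were 0.0396 to 0.0589 reads on mt-Nd6 per read on mt-Nd5 in control and 0.0390 to 0.0571 in Neuid KD. Across groups, this ratio was 0.0458 to 0.0589 in the 7 libraries with a background of at least 100 CPM and 0.0390 to 0.0419 in the other 5, with no overlap. Whether reads were counted by strand is not given in the sources used here, and without strand the reads of mt-Nd6 and of transcripts that run antisense to it cannot be told apart.

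**Figure D3:**
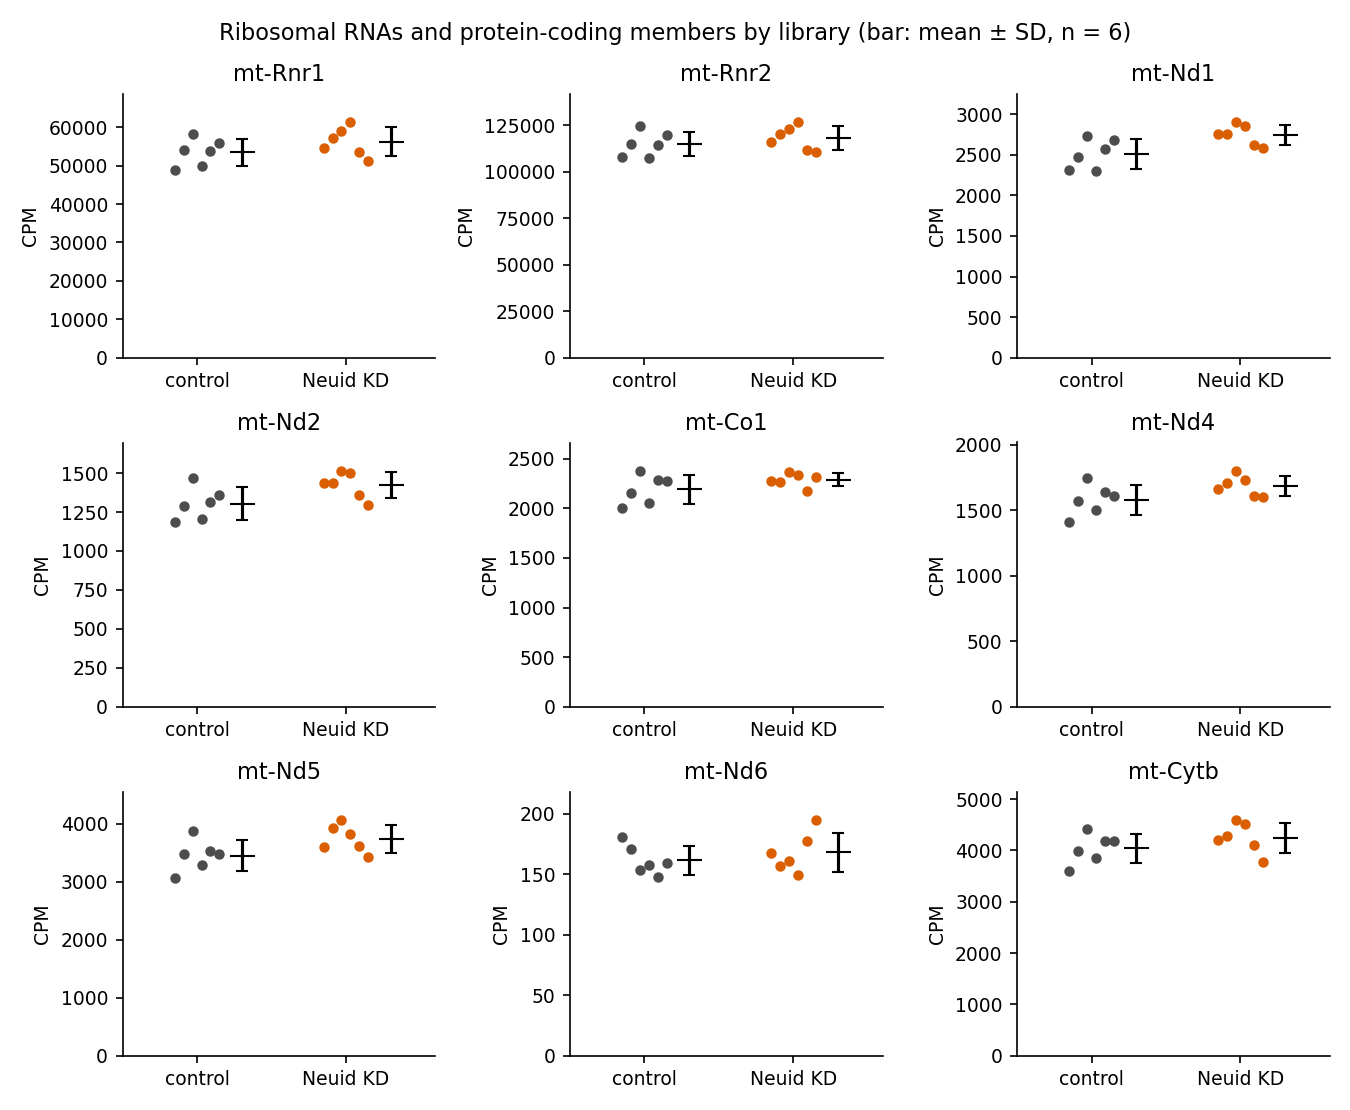
CPM (linear axis from 0) of the 2 rRNAs and the 7 tested coding genes in each library, with replicates 1 to 6 from left to right within a group (grey, control; orange, Neuid KD) and the mean ± SD of 6 libraries beside them. The groups overlap in each panel, and mt-Nd6 differs from the other coding genes in which libraries are highest.

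Levels between genes are compared per kb of gene. Among the tested coding genes the order in control libraries was mt-Cytb (3529.5 ± 253 CPM per kb, SD, n = 6), mt-Nd1 (2624 ± 192), mt-Nd5 (1892 ± 147), mt-Co1 (1419.6 ± 94.6), mt-Nd2 (1257 ± 102), mt-Nd4 (1145 ± 82.3) and mt-Nd6 (311 ± 23.3). The order was the same in each of the 12 libraries. Between libraries, the ranges of mt-Co1 and mt-Nd2 overlapped, as did those of mt-Nd2 and mt-Nd4. When only windows that occur in no other annotated gene were counted as length, mt-Nd4 moved to second place with 3143 ± 226 CPM per 1000 such windows and mt-Co1 followed it with 3000.4. On this scale the order was again the same in each of the 12 libraries. The ranges of mt-Cytb and mt-Nd4, of mt-Nd4 and mt-Co1, and of mt-Co1 and mt-Nd1 overlapped, and mt-Nd5, mt-Nd2 and mt-Nd6 followed without overlap. The place of mt-Nd4 among the coding genes thus depended on how shared windows were treated.

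The rRNAs were the most abundant members. mt-Rnr1 (70 to 1024), the RNA of the small ribosomal subunit, measured 48809, 53944 and 58355 CPM in control and 51102, 55996 and 61422 CPM in Neuid KD, with a log2 fold change of 0.07 (interval -0.03 to 0.18). mt-Rnr2 (1094 to 2675), the RNA of the large subunit, measured 107570, 114640 and 124500 CPM in control and 110700, 118400 and 126960 CPM in Neuid KD. Its log2 fold change was 0.04 (interval -0.05 to 0.13), and it turned to -0.02 with upper-quartile scaling and -0.01 when scaled to mitochondrial reads. Both sets of ranges overlapped over most of their length. Per kb of gene, mt-Rnr2 exceeded mt-Rnr1 in all 12 libraries, at 72641 ± 4156 against 55975 ± 3750.3 CPM per kb in control (SD, n = 6). There were 2.13 to 2.22 reads on mt-Rnr2 per read on mt-Rnr1 in control and 2.07 to 2.17 in Neuid KD.

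Among the 9 tested tRNA genes, 3 held most of the reads, and their sequences are shown because they make up most of the summed tRNA level below. These are mt-Tv for valine, which lies between the 2 rRNA genes (1025 to 1093, plus strand), mt-Tm for methionine (3845 to 3913, plus strand) and mt-Tp for proline (15356 to 15422, minus strand). A 50-base read had 67 positions that touched mt-Tp and no other mitochondrial gene, against 20 for mt-Tv and 22 for mt-Tm. The part of this in their read counts was not tested. The lines give the whole gene from GENCODE on GRCm38, 5′ to 3′, without the CCA end that is added after transcription.
mt-Tv: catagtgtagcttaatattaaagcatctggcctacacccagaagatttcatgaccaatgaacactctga
mt-Tm: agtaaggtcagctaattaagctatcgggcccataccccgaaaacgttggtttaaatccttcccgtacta
mt-Tp: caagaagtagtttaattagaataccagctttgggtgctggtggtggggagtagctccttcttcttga

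The tRNA reads differed more between libraries than between groups. The summed level of the 22 tRNA genes was 31.2, 32.3 and 61.9 CPM as lowest, median and highest in control, and 26.4, 36.5 and 60.7 CPM in Neuid KD. Control library 1 (61.9 CPM), Neuid KD library 4 (60.7 CPM) and Neuid KD library 6 (50.8 CPM) were above the other 9 libraries, which ranged from 26.4 to 38.5 CPM. These 3 libraries differed widely in background, at 667, 50.5 and 333 CPM. Their total reads ranged from 18002585 to 30573480, which was inside the range of the other 9 libraries.

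The same 3 libraries stood apart in several tRNA genes, annotated on either strand. mt-Tv was at 25.3, 27.1 and 26.4 CPM in them and at 10.9 to 16.4 CPM in the other 9. mt-Tp was at 9.76, 9.02 and 7.27 CPM in them and at 4.26 to 4.96 CPM elsewhere. In 4 of the 9 tested tRNA genes (mt-Tv, mt-Tp, mt-Ta for alanine and mt-Tt for threonine), each of the 3 libraries was above each of the other 9. The libraries were picked for their tRNA levels, so this is a description with no test. mt-Tp and mt-Ta are annotated on the minus strand, and the limit on strand given for mt-Nd6 holds for them too. The coding genes together held 8.05% to 8.57% of mitochondrial reads in the 3 libraries and 8.22% to 8.73% in the others. Single members were high in some of the 3 as well, with mt-Nd6 at 181 CPM in control library 1 and 195 CPM in Neuid KD library 6, and both rRNAs highest of all in Neuid KD library 4.

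**Figure D4:**
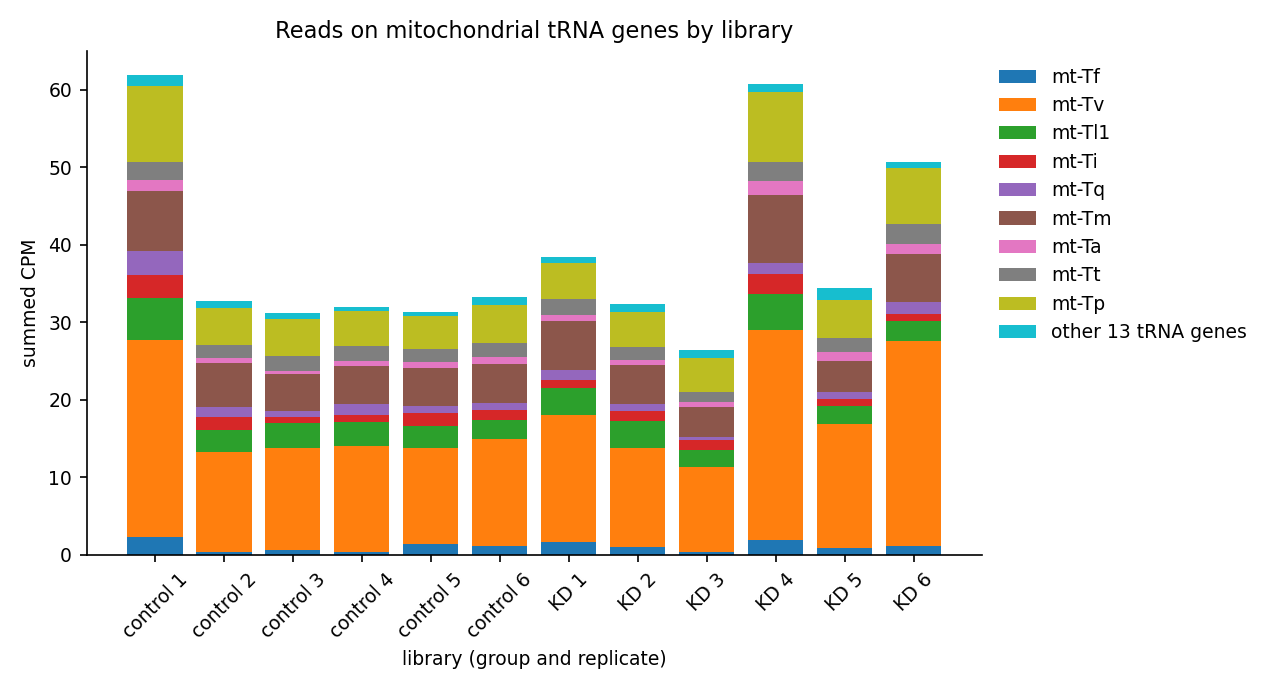
Summed CPM of the mitochondrial tRNA genes in each library (bars start at 0), stacked by gene, for control libraries 1 to 6 and Neuid KD (KD) libraries 1 to 6. Control 1 (61.9), KD 4 (60.7) and KD 6 (50.8) are the tallest, and mt-Tv is the largest part of each bar.

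No tRNA gene differed between the groups beyond this spread. mt-Tv had 12.5, 13.4 and 25.3 CPM in control and 10.9, 16.2 and 27.1 CPM in Neuid KD, with a log2 fold change of 0.28 (interval -0.19 to 0.75, adjusted p = 0.623 in the edgeR fit). This value was 0.47 without control library 1, 0.11 without Neuid KD library 4 or library 6, and 0.05 without all 3. mt-Tm had 4.67, 5.03 and 7.80 CPM in control and 3.84, 5.64 and 8.81 CPM in Neuid KD, with a log2 fold change of 0.05. mt-Tp had 4.26, 4.78 and 9.76 CPM in control and 4.45, 4.84 and 9.02 CPM in Neuid KD, with a log2 fold change of 0.10. In all 3 the ranges overlapped, and the sign of mt-Tm and mt-Tp turned negative without the 3 libraries high in tRNA reads (-0.12 and -0.02).

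The other 6 tested tRNA genes had 247 to 864 reads each over the 12 libraries, and their fits were wide. Their log2 fold changes were 0.41 for mt-Ta, 0.16 for mt-Tf (phenylalanine), 0.06 for mt-Tt, -0.08 for mt-Tl1 (leucine), -0.17 for mt-Ti (isoleucine) and -0.38 for mt-Tq (glutamine). Each interval covered 0, and the widest, for mt-Tf, spanned -0.85 to 1.17. The fitted values of the coding genes lay inside each of these 6 intervals. Without Neuid KD library 4 the value of mt-Ta was 0.18, and without control library 1 it was 0.63. mt-Ti and mt-Tq lie on opposite strands and overlap by 3 bases. Their counts, like those of the other tRNA genes, carry the same limit on strand as mt-Nd6.

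The complexes of oxidative phosphorylation also need subunits encoded in the nucleus. Of 81 tested nuclear subunit genes of complexes I to V, 9 rose (11.1%, against 6.31% of all genes tested) and none fell. DESeq2 called 18 higher and none lower, against 7.99% and 6.25% of all genes to which it gave an adjusted p. At an unadjusted p under 0.05 edgeR had 45, all of them higher, against 18.8% of all genes tested in either direction. The median log2 fold change of the 81 subunit genes was 0.13, and 77 were positive (67 with upper-quartile scaling and 68 when scaled to mitochondrial reads). Their median was 0.07 with upper-quartile scaling and 0.08 when scaled to mitochondrial reads. The count of 9 moved with the setting: it ranged from 0 with offsets for GC content and length to 26 with background as a covariate, and was 1 to 10 when single libraries were left out. The share of all genes called higher moved as well, to 2.01% with these offsets and 9.07% with this covariate. All of the 9 changes were below 0.5 on the log2 scale.

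In complex I, 3 of 37 rose (8.11%, near the 6.31% of all genes tested). Ndufb7, an accessory subunit, went from 31.1 ± 1.73 to 38.5 ± 4.01 CPM (SD, n = 6 in each), and its log2 fold change was 0.30 with an adjusted p of 0.00495 by edgeR's quasi-likelihood test. Ndufs4, an accessory subunit whose loss in mice causes an encephalopathy, had a log2 fold change of 0.18. In complex II 1 of 4 rose (Sdhc, a membrane anchor, 0.24), and in complex III 1 of 9 (Uqcrfs1, the Rieske iron-sulfur protein, 0.16). In complex IV 2 of 14 rose (Ndufa4, 0.19, and Cox8a, 0.20). In complex V 2 of 17 rose (Atp5g3, a gene for subunit c of the rotor, 0.21, and Atp5j, coupling factor 6, 0.18). The shares for complexes II to V were 25%, 11.1%, 14.3% and 11.8%, against 6.31% of all genes tested. Each of these shares rests on only 1 or 2 called genes. Within complex I, the median log2 fold change was 0.14 over nuclear subunits, and the 5 tested mitochondrial subunits had values of 0.13 (mt-Nd1), 0.13 (mt-Nd2), 0.12 (mt-Nd5), 0.09 (mt-Nd4) and 0.06 (mt-Nd6). No test was made between them.

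Few genes for proteins that make and read mitochondrial RNA were called. Among 18 tested genes of mitochondrial transcription and mitochondrial DNA replication, 1 fell and 1 rose (5.56% each, against 2.42% and 6.31% of all genes tested), with a median log2 fold change of -0.07. The gene that fell was Top1mt, the mitochondrial topoisomerase, from 15.6 ± 1.27 to 12.4 ± 1.77 CPM (SD, n = 6 per group; log2 fold change -0.33, adjusted p = 0.0268 by edgeR's quasi-likelihood test). The gene that rose was Polg, the catalytic subunit of the mitochondrial DNA polymerase (0.21). DESeq2 called 2 genes of this list lower and 1 higher, against 6.25% and 7.99% of all genes to which it gave an adjusted p. In the edgeR fit 14 of the 18 were negative, against 10880 of 19578 genes tested. Of 24 tested genes of mitochondrial RNA processing and stability, none was called by edgeR or DESeq2, and 1 had an unadjusted p under 0.05 in the edgeR fit. This was Ptcd3, a pentatricopeptide protein of the small ribosomal subunit, with 32.2 ± 2.28 and 36.7 ± 3.28 CPM (SD, n = 6 per group; log2 fold change 0.19, adjusted p = 0.0892 by edgeR's quasi-likelihood test).

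In the mitochondrial ribosome, 1 of 48 tested genes of the large subunit rose (2.08%; Mrpl18, 0.23) and 3 of 30 of the small subunit (10%; Mrps6, 0.20, Mrps9, 0.17, and Aurkaip1, 0.16), with median log2 fold changes of 0.06 and 0.07. Of 22 mitochondrial aminoacyl-tRNA synthetases, which charge the tRNAs, 1 rose (4.55%; Fars2 for phenylalanine, 0.24), and the median was 0.02. Of all genes tested, 6.31% rose. By edgeR none of these 3 lists had a gene that fell, with 2 negative genes in all at an unadjusted p under 0.05, and DESeq2 called 1 lower, a gene of the large subunit.

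The largest change among the nuclear genes named here was in a regulator of mitochondrial biogenesis. Ppargc1a, which encodes the transcriptional coactivator PGC-1α, measured 34.2, 37.9 and 40.1 CPM as lowest, median and highest in control and 51.7, 63.7 and 67.5 CPM in Neuid KD. The ranges did not overlap, and the log2 fold change was 0.72 ± 0.07 (SE, adjusted p = 6.63e-07 by edgeR's quasi-likelihood test). Gabpa, a subunit of a transcription factor that acts on many nuclear genes of the respiratory chain, had a log2 fold change of 0.24. These were the 2 of 14 regulators that rose by edgeR (14.3%, against 6.31% of all genes tested). By DESeq2 4 rose, against 7.99% of all genes to which it gave an adjusted p, and none fell by either tool. Of the nuclear genes named here as called, Ppargc1a alone passed the threshold in all 26 alternatives, and the others passed in 4 to 23 of them.

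**Figure D5:**
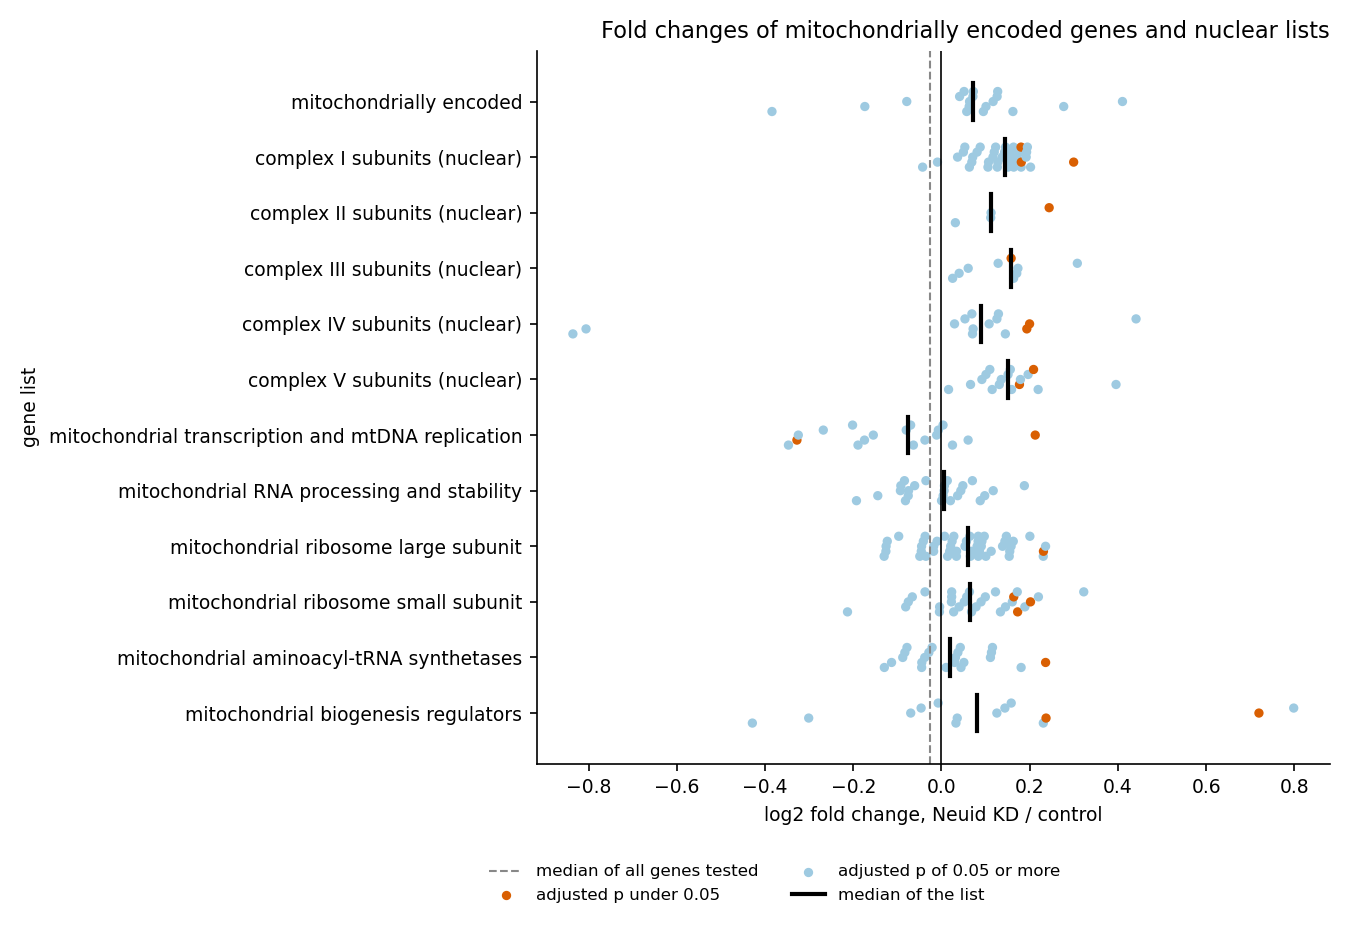
Log2 fold change (Neuid KD over control) of each tested gene of the mitochondrially encoded set and of the nuclear lists, with 1 point per gene (orange, adjusted p under 0.05; blue, not), the median of each list as a black bar and the median of all genes tested as a dashed line. The mitochondrially encoded genes have no orange point, the nuclear subunits of the 5 complexes lie mostly above 0, and Ppargc1a is the orange point at 0.72.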

How the data were processed

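Total RNA of 12 samples was made into stranded libraries from low input, and 50-base single reads were sequenced. The authors aligned the reads with STAR to mm10 (GRCm38) and deposited raw read counts per gene from featureCounts; the strand setting and the handling of multi-mapping reads are not given in the sources used here. The members and the gene lists were chosen with earlier results of these data known. Counts were tested with edgeR 4.0.16 in R 4.3.3 (filterByExpr, TMM, quasi-likelihood test, Benjamini-Hochberg adjustment over 19578 genes), and checked with DESeq2 1.42.0. The study's own analysis used DESeq2 with RUVseq, so RUVs factors were among the alternatives. CPM were computed from the TMM-scaled library sizes. The SE is the log2 fold change divided by the square root of F. Symbols and positions came from GENCODE on GRCm38 for 55144 genes. Groups came from the sample titles. All members were accounted for, and of each nuclear list up to 3 genes per direction with the smallest adjusted p under 0.05 were named, or, for a list with none, the gene with the largest absolute change at 10 CPM or more. A gene picked by this rule is not reported here. The fit was tested on simulated data. Replicates of a group differed by more than sampling noise (chi-square per degree of freedom of 3.40 to 17.5 over 30 pairs). This cannot show whether they came from separate cultures. Each library counted as 1 replicate in the fits, so the SEs and p-values make no allowance for libraries that share a culture.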

Additional observations from a re-analysis of the deposited data

Results flagged for a closer look

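In 8 of 40 groups of values checked (each tested member, the summed tRNA level and the mitochondrial share, within each group of 6 libraries), 1 library lay far from the others by Dixon's test. Chance alone flags about 1 in 20 groups, and the genes share libraries, so the flags are not independent. Control replicate 1 accounted for 7 of the 8: it was highest for mt-Tv (25.3 CPM, next 13.8), mt-Tl1 (5.52 CPM, next 3.20), mt-Tq (3.10 CPM, next 1.44), mt-Tm (7.80 CPM, next 5.77), mt-Tt (2.43 CPM, next 1.95), mt-Tp (9.76 CPM, next 4.93) and the summed tRNA level (61.9 CPM, next 33.3). Neuid KD replicate 4 was highest for mt-Ti (2.59 CPM, next 1.31). No tested coding gene and no rRNA had such a library. Control replicate 1 also had the highest background of the 12 libraries (667 CPM), but Neuid KD replicate 4, at 60.7 CPM of summed tRNA level, had a background of 50.5 CPM. The part of background in the tRNA values was not tested.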

How the results depend on the processing

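In none of 26 alternatives did a mitochondrially encoded gene fall, and 1 (mt-Nd1) rose with 1 RUVs factor and with background as a covariate. In those settings 8.97% and 9.07% of all genes tested rose, respectively. Leaving out single libraries gave 0 called members throughout, a median log2 fold change of the members of 0.03 to 0.10, and a difference in the mitochondrial share of -0.23 to 0.27 percentage points, so the sign of that difference rested on single libraries. Neuid passed the threshold in all alternatives for which it was recorded, which leave out the scaling to mitochondrial reads.

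The number of nuclear oxidative phosphorylation subunit genes called higher (9) depended on the setting, and the cause was not tested. Each percent in brackets in this paragraph is the share of all genes tested that was called higher in that setting, not the share of subunit genes. The number called higher was 4 with DESeq2 size factors (5.48%) and 5 with upper-quartile scaling (5.36%). Library sizes and TMM from nuclear genes gave 3 (5.404%), and no filter on low counts gave 1 (1.47%). DESeq2 gave 18 (7.99%, here taken over all genes to which it gave an adjusted p). With 1 RUVs factor the number was 25 (8.97%), and with 2 it was 24 (8.71%). Background as a covariate gave 26 (9.07%), and GC and length offsets gave 0 (2.01%). The number was 1 in libraries with at least 100 CPM of background (2.75%) and 3 in those below (6.28%), which hold fewer samples. It was 1 to 10 without single libraries (3.93% to 6.11%). Without control replicate 1 and Neuid KD replicates 4 and 6, left out together after the tRNA reads had been seen, it was 1 (3.32%). Without the filter, the median over all 48419 genes tested was -0.14. With the replicate block the number of subunit genes called higher was 8 (6.6%), and no member was called. Only 2 of 6 pairs of libraries with the same number correlated above 0.1 in their deviations from the group means (-0.64 to 0.77), and 2 of the 6 correlated best with their own number, so the numbers were not taken to pair the libraries.

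Of the 18 tested members, 8 kept their sign in all alternatives and none of the other 10 was called in any. With upper-quartile scaling the log2 fold change was -0.017 for mt-Rnr2, -0.015 for mt-Tm and -0.0036 for mt-Nd6, and scaled to mitochondrial reads it was -0.014 for mt-Rnr2 and -0.020 for mt-Tm. In libraries with at least 100 CPM of background mt-Tm was at -0.093 and mt-Tp at -0.053. Below 100 CPM mt-Tl1 was at 0.16, mt-Ti at 0.50, mt-Tq at 0.12, mt-Co1 at -0.034 and mt-Tt at -0.025. With GC and length offsets mt-Tm was at -0.11, mt-Tt at -0.048 and mt-Tp at -0.047. Without the 3 libraries named above mt-Rnr2 was at -0.0054, mt-Tm at -0.12, mt-Tt at -0.11 and mt-Tp at -0.020. Leaving out single libraries moved mt-Tf between -0.049 and 0.56, mt-Tl1 between -0.24 and 0.13, mt-Ti between -0.47 and 0.097, mt-Tq between -0.55 and 0.023, mt-Tm between -0.13 and 0.17, mt-Nd6 between -0.022 and 0.092, mt-Tt between -0.056 and 0.16, and mt-Tp between -0.082 and 0.34. Among members that kept their sign, mt-Tv moved between 0.11 and 0.47 and mt-Ta between 0.18 and 0.63.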
